A study of Rattus norvegicus with 16 samples.

Results

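The 9 genes described here encode 3 adrenergic receptors (Adrb1, Adra1a and Adra1b) and 6 adenylyl cyclases (Adcy2, Adcy3, Adcy4, Adcy5, Adcy6 and Adcy9), out of 32754 gene entries measured in rat right ventricle. They were picked by symbol as one signalling family, and Adcy2 was added because its level was lower in KO than in WT libraries after both surgeries. RNA sequencing was done on right ventricle of female Sprague Dawley rats aged 20 to 21 weeks, with 4 libraries in each of 4 groups. KO PAB rats were mutant for estrogen receptor alpha (ERalpha -/-) and had 10 weeks of pulmonary artery banding, which narrows the vessel the right ventricle pumps into and loads the chamber with pressure. KO SHAM rats carried the same mutation and had sham surgery. WT PAB rats were wild type with banding, and WT SHAM rats were wild type with sham surgery. The labels do not say which part of the receptor gene was altered, nor that the 4 libraries of a group come from separate animals, so the p-values measure only the spread between these samples.

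Adrenergic receptors carry the signal of noradrenaline and adrenaline into the heart muscle cell. The beta1 receptor (Adrb1) acts through the G protein Gs on adenylyl cyclases, which make cyclic AMP, and cyclic AMP turns on protein kinase A, which speeds and strengthens contraction and relaxation. The alpha1 receptors (Adra1a, Adra1b) act through Gq on phospholipase C instead. Adcy5 and Adcy6 are the main cyclases of the heart muscle cell and are inhibited by Gi and by calcium. Adcy2 and Adcy4 belong to a class that G protein beta-gamma subunits stimulate, Adcy3 is best known from olfactory neurons, and Adcy9 is a widely made cyclase with weak sensitivity to forskolin.

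RefSeq promoters (build GRCr8) were found for 6 of the 9 genes. Those of Adcy2 and Adcy5 are shown because Adcy2 is the gene whose level followed the genotype, whereas Adcy5 is the cyclase whose level varied least. Each run gives the 250 bases before the annotated start, 5′ to 3′ on the gene's own strand, with capitals at matches to the GC box GGGCGG on either strand. Adcy2 lies at chr1:36203804-36204053 on the + strand, and Adcy5 at chr11:79123344-79123593 on the - strand.
Adcy2: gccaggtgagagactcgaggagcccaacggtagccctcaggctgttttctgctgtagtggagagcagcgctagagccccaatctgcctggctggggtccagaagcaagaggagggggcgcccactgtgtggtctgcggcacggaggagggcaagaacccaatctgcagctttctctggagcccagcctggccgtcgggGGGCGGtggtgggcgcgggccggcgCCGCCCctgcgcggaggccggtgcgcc
Adcy5: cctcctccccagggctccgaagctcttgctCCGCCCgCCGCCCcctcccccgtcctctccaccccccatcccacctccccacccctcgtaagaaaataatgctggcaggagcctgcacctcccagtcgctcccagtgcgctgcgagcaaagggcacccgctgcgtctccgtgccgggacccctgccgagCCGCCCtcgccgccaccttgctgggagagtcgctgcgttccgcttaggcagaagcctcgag
The Adcy2 window held 2 GC boxes and the Adcy5 window 3, without overlap between motifs, and 30.5% of 33469 promoter windows of the same length held at least 1. Neither window matched the full estrogen response element GGTCANNNTGACC, which 0.0239% of the windows held, nor its half-site GGTCA, which 35.4% held, on either strand. Neither matched the cyclic AMP response element TGACGTCA, held by 1.59% of windows, or its half-site TGACG, held by 18.2%. Among the windows not shown, those of Adrb1, Adra1b, Adcy4 and Adcy9 held no GC box. Those of Adrb1 and Adcy9 each held 1 match to the half-site TGACG. These matches describe the letters of the windows only.

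Total counts per library were 22168110 to 34718633. Esr1, which encodes ERalpha, had 7 to 13 counts in KO PAB, 10 to 21 in KO SHAM, 70 to 131 in WT PAB and 91 to 139 in WT SHAM. The 9 cardiomyocyte markers found in the files were above 0 in every library, with summed levels of 29244 to 44300 CPM (counts scaled to a common library total) in KO PAB, 32603 to 42619 in KO SHAM, 37534 to 42634 in WT PAB and 24837 to 48143 in WT SHAM. The libraries KO SHAM 4, WT SHAM 2 and WT SHAM 3 stood apart from the other 5 sham libraries in markers of fat and of the mesothelium that covers the heart. The fat hormone gene Adipoq was at 11.1 to 45.6 CPM in those 3 and at 0 to 0.0461 CPM in the other 5, and the mesothelial gene Msln was at 20.5 to 43.9 CPM in those 3 and at 0.164 to 7.90 CPM in the other 5. Smooth muscle myosin, Myh11, was higher in those 3, at 291 to 1031 CPM against 34.8 to 107 CPM in the other 5. Among banded libraries, KO PAB 3 held Adipoq at 5.21 CPM, against 0 to 0.355 CPM in the rest. KO PAB 3 was kept in the fits that left out the 3 sham libraries. Summed over 8 mesothelial markers, levels were 13.0 to 18.4 CPM in KO PAB, 14.0 to 108 in KO SHAM, 12.4 to 17.5 in WT PAB and 7.61 to 121 in WT SHAM. Summed over 10 adipocyte markers, levels were 177 to 240 CPM in KO PAB, 153 to 219 in KO SHAM, 174 to 249 in WT PAB and 210 to 354 in WT SHAM, while the fat droplet gene Plin1 was at 0 in all 5 other sham libraries. This sum did not set the 3 apart, at 219 CPM in KO SHAM 4 and 225 in WT SHAM 2, against 222 in WT SHAM 1. The 3 were set apart by the mean standardised log2 level of the tested adipocyte markers, and by a like mesothelial score. That adipocyte score was 0.819 to 1.60 in the 3 and -0.487 to -0.135 in the other 5.

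All 9 genes passed the filter on low counts. With edgeR's quasi-likelihood test and Benjamini-Hochberg adjustment over 13458 genes, 0 of the 9 passed an adjusted p of 0.05 for banding averaged over the genotypes, in which 5.09% of all tested genes passed. Within KO, 0 of 9 passed against 0.632% of all genes, and within WT, 0 of 9 passed against 0.00743%. At an unadjusted p below 0.05 the members numbered 1, 1 and 0, against 22.7%, 15.6% and 11.7% of all genes. DESeq2 called 1 member, Adcy6, in the averaged comparison, where it called 1337 of 13458 genes, and in KO, where it called 509, and it called 0 of 9 in WT. With limma-voom 0 of 9 were called in each. Between genotypes, Adcy2 is left out of the tests because its level chose it. Of the other 8, 0 passed averaged over surgeries, in PAB or in SHAM by edgeR, DESeq2 or limma-voom, and 0.00743% of all genes passed in each by edgeR. At an unadjusted p below 0.05 there were 1, 2 and 0 of 8, against 4.93%, 4.52% and 2.03% of all genes. For the interaction (how much more banding changed a gene in KO than in WT), 0 of 8 and 0% of all genes passed by edgeR, 0 of 8 by the other tools, and 1 of 8 had an unadjusted p below 0.05 against 1.76% of all genes. The median log2 fold change of the 9 was -0.063 for averaged banding against -0.024 for all genes. Between genotypes, averaged over surgeries, the median of the 8 was -0.080 against -0.0094 for all genes.

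**Figure D1:**
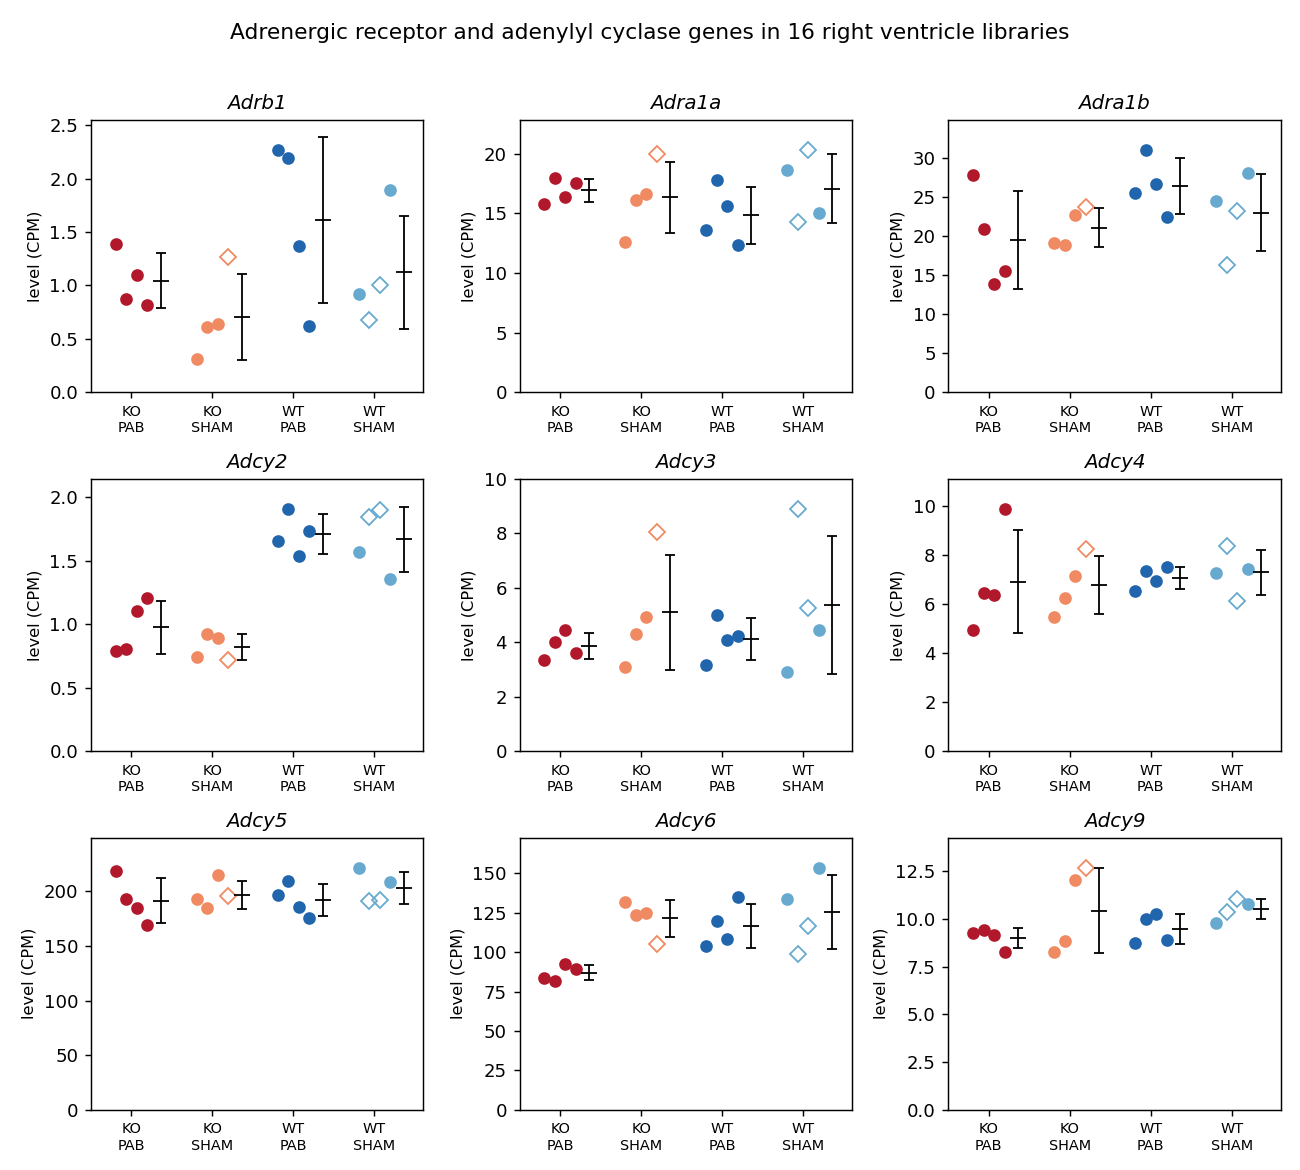
Level in CPM of each of the 9 genes (vertical axes, each starting at 0) in the 16 libraries, by group; points are libraries in replicate order, open diamonds are KO SHAM 4, WT SHAM 2 and WT SHAM 3, and black bars are mean ± SD (n = 4). Adcy6 was at 81.9 to 92.5 CPM in KO PAB, below the other 12 libraries, and Adcy2 was lower in all 8 KO than in all 8 WT libraries, the pattern that chose it.

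Adrb1, the beta1 receptor, had few reads and a wide spread. Its counts were 10 to 68 per library, and its level varied 7.31-fold between the lowest and the highest library. Levels were 1.39, 0.876, 1.10 and 0.815 CPM in KO PAB, 0.310, 0.614, 0.637 and 1.26 in KO SHAM, 2.27, 2.20, 1.37 and 0.617 in WT PAB, and 0.922, 0.673, 1.00 and 1.89 in WT SHAM. WT PAB held both the 2 highest libraries and 1 of the lower ones, and every group overlapped every other. In order of means, WT PAB came first with 1.61 ± 0.779 CPM, then WT SHAM with 1.12 ± 0.531, KO PAB with 1.05 ± 0.262 and KO SHAM with 0.706 ± 0.40 (SD, n = 4 each), and neighbours in that order differed by less than the larger of their SDs. The log2 fold change for banding was 0.55 in KO (95% interval -0.42 to 1.53) and 0.53 in WT (-0.42 to 1.48). KO against WT, averaged over surgeries, gave -0.64 (-1.32 to 0.046, adjusted p = 0.989 by edgeR). The banding intervals do not exclude a rise of more than 2-fold after banding in either genotype. Single libraries moved the values: banding in KO gave 1.02 without KO SHAM 4 and 0.30 without KO SHAM 1, and banding in WT gave 0.90 without WT SHAM 4, 0.80 without WT PAB 4, 0.35 without WT SHAM 2, 0.33 without WT PAB 1 and 0.34 without WT PAB 2. The averaged banding value was 0.42 to 0.78, and that of KO against WT averaged -0.86 to -0.45, over the fits that left out 1 library. Without the 3 sham libraries that stood apart, the values were 1.02 for banding in KO, 0.20 in WT and -1.03 for KO against WT averaged.

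Adra1a, the alpha1A receptor, showed no group apart. Levels were 15.8 to 17.9 CPM in KO PAB, 12.6 to 20.0 in KO SHAM, 12.3 to 17.8 in WT PAB and 14.3 to 20.3 in WT SHAM, so all groups overlapped. The log2 fold change for banding was 0.051 in KO (-0.27 to 0.37) and -0.20 in WT (-0.52 to 0.12). That of KO against WT was 0.19 in PAB (-0.13 to 0.51) and -0.062 in SHAM (-0.38 to 0.26).

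Adra1b, the alpha1B receptor, had 2 low libraries in KO PAB, and no comparison of it passed the test. Its levels were 27.8, 20.9, 13.8 and 15.6 CPM in KO PAB, against 25.6, 31.0, 26.7 and 22.4 CPM in WT PAB. KO PAB held the 2 lowest libraries of all 16, but KO PAB 1 lay within the WT PAB range. Sham levels were 18.9 to 23.7 CPM in KO and 16.3 to 28.1 CPM in WT. The log2 fold change of KO against WT in PAB was -0.44 (SE 0.201, 95% interval -0.87 to -0.010, unadjusted p = 0.0453, adjusted p = 0.999 by edgeR). The two-sided exact permutation test of log2 CPM gave p = 0.143. In SHAM the log2 fold change was -0.13 (-0.55 to 0.30). For banding it was -0.11 in KO (-0.54 to 0.31) and 0.20 in WT (-0.23 to 0.63).

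Both alpha1 receptors were also set against each other within a library, where the scaling of libraries cancels. The ratio of Adra1b counts to Adra1a counts was 1.76, 1.16, 0.842 and 0.885 in KO PAB, 1.51, 1.17, 1.37 and 1.19 in KO SHAM, 1.88, 1.74, 1.70 and 1.82 in WT PAB, and 1.31, 1.14, 1.15 and 1.87 in WT SHAM. The ratio was high and even in WT PAB (1.79 ± 0.0786, SD, n = 4) and uneven in KO PAB (1.16 ± 0.424), where 3 of 4 libraries lay below every WT PAB library and KO PAB 1 lay within their range. The ratio is of counts, not per length, so only its shift between libraries can be read.

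**Figure D2:**
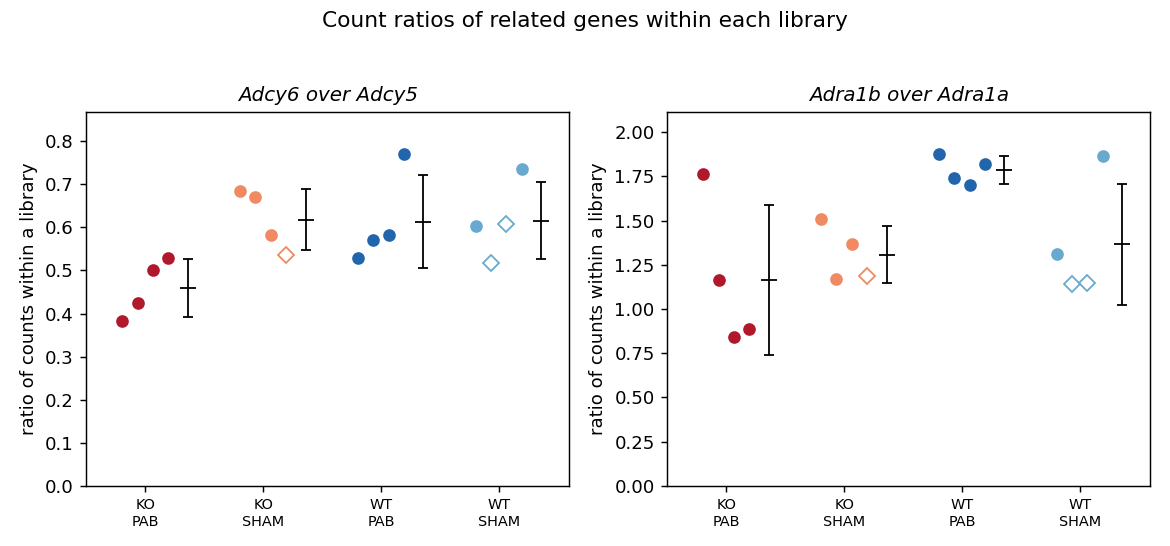
Ratio of counts within each library (vertical axes, starting at 0) of Adcy6 over Adcy5 (left) and Adra1b over Adra1a (right), by group; open diamonds are KO SHAM 4, WT SHAM 2 and WT SHAM 3, and black bars are mean ± SD (n = 4). The Adcy6 ratio averaged 0.459 in KO PAB and 0.613 to 0.618 in the other groups, and the Adra1b ratio averaged 1.16 in KO PAB and 1.79 in WT PAB.

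Adcy6 lay lower in KO PAB than in each other group, in every library. Levels were 83.9, 81.9, 92.5 and 89.6 CPM in KO PAB, 132, 124, 125 and 105 in KO SHAM, 104, 119, 109 and 135 in WT PAB, and 134, 98.8, 117 and 153 in WT SHAM. All 4 KO PAB libraries lay below all 12 others, whereas the other groups overlapped each other; 37 of the tested genes, 0.275%, were lower in KO PAB in the same way, a count made after the values of Adcy6 were seen. Means were 87.0 ± 4.93 CPM in KO PAB, 121 ± 11.6 in KO SHAM, 117 ± 13.8 in WT PAB and 126 ± 23.4 in WT SHAM (SD, n = 4 each). Fewer cells that make a transcript and less of it per cell cannot be told apart in these bulk samples.

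For banding in KO, Adcy6 had a log2 fold change of -0.48 (SE 0.125, 95% interval -0.75 to -0.22, unadjusted p = 0.00156), with an adjusted p of 0.0838 by edgeR. Its groups did not overlap there, as for 4.32% of all genes in that direction. In WT the log2 fold change was -0.11 (-0.37 to 0.16, adjusted p = 0.755), with overlapping groups. The averaged banding effect was -0.29 (SE 0.0885, adjusted p = 0.0667). Two-sided exact permutation tests of log2 CPM gave p = 0.0286 for banding in KO, the smallest that 4 against 4 libraries allow, and 0.486 after adjustment over 34 such tests.

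The call for Adcy6 after banding depended on the tool and on single libraries. It did not pass in 21 of 25 alternatives in KO and in 19 of 24 averaged. With limma-voom the adjusted p was 0.0791 in KO and 0.0701 averaged. With edgeR and a replicate block it was 0.125 in KO and 0.0960 averaged. With DESeq2 the adjusted p was 0.0152 in KO and 0.0263 averaged, and with a fit of the KO libraries alone it was 0.0468. Leaving out WT SHAM 2 gave an adjusted p of 0.0440 in KO and 0.0273 averaged, and leaving out WT PAB 4 or KO SHAM 4 gave 0.0449 or 0.0490 averaged. Without the 3 sham libraries that stood apart, an alternative added after the data were seen, the log2 fold change was -0.54 in KO (adjusted p = 0.0301) and -0.42 averaged (adjusted p = 0.0142). Those 3 libraries held Adcy6 at 98.8 to 117 CPM, against 124 to 153 CPM in the other 5 sham libraries. In WT the log2 fold change without them was -0.29 (adjusted p = 0.597).

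Between genotypes, Adcy6 differed by a log2 fold change of -0.43 in PAB (SE 0.125, unadjusted p = 0.00397, adjusted p = 0.999 by edgeR), with no overlap between the groups, as for 1.63% of all genes in that direction. The exact permutation p was 0.0286, the smallest possible, and 0.486 after adjustment. In SHAM the log2 fold change was -0.048 (-0.31 to 0.22). The interaction was -0.38 (SE 0.177, unadjusted p = 0.0498, adjusted p = 0.999), so the banding effects of the genotypes were not shown to differ. Without the 3 sham libraries the interaction was -0.25.

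Some marker sums differed between banded and sham libraries. Summed over the 4 atrial cardiomyocyte markers, which include the load-responsive natriuretic peptide gene Nppa, levels were 335 to 1037 CPM in KO PAB, 3.69 to 19.1 in KO SHAM, 45.6 to 466 in WT PAB and 3.23 to 23.6 in WT SHAM. Summed over 5 Schwann cell markers they were 7.31 to 14.6 CPM in KO PAB, 17.3 to 27.7 in KO SHAM, 11.8 to 15.9 in WT PAB and 16.5 to 31.3 in WT SHAM. Summed over 6 lymphocyte markers they were 1.91 to 2.25 CPM in KO PAB, 2.67 to 3.57 in KO SHAM, 1.46 to 3.62 in WT PAB and 2.29 to 3.69 in WT SHAM. KO PAB and KO SHAM did not overlap in any of these sums, and overlapped in the sums of the other marker lists. WT PAB and WT SHAM did not overlap in the atrial and Schwann cell sums either, but did in the lymphocyte sum. KO PAB and WT PAB overlapped in each of these sums. In the atrial sum they did so only through WT PAB 1, at 466 CPM. The other WT PAB libraries were at 59.4, 45.6 and 95.2 CPM there, below every KO PAB library. The part of these markers in the Adcy6 values was not tested.

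Adcy5, the other main cyclase of heart muscle cells, varied least of the 9. Levels were 169 to 219 CPM in KO PAB, 185 to 215 in KO SHAM, 175 to 210 in WT PAB and 191 to 222 in WT SHAM, a span of 1.31-fold over all 16 libraries. The log2 fold change for banding was -0.042 in KO (-0.24 to 0.16) and -0.083 in WT (-0.28 to 0.12), and that of KO against WT was -0.0037 in PAB (-0.20 to 0.20) and -0.045 in SHAM (-0.25 to 0.16). Each of these intervals excludes a change as large as the Adcy6 estimate of -0.48 in KO after banding. Within a library, the ratio of Adcy6 counts to Adcy5 counts was 0.383, 0.425, 0.50 and 0.530 in KO PAB, 0.685, 0.670, 0.581 and 0.536 in KO SHAM, 0.529, 0.570, 0.583 and 0.771 in WT PAB, and 0.603, 0.516, 0.608 and 0.735 in WT SHAM. The 3 lowest ratios of all libraries were in KO PAB, whose highest ratio overlapped the lowest of WT PAB and WT SHAM. The group means were 0.459 ± 0.0673 in KO PAB, 0.618 ± 0.0713 in KO SHAM, 0.613 ± 0.108 in WT PAB and 0.616 ± 0.0901 in WT SHAM (SD, n = 4 each).

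**Figure D3:**
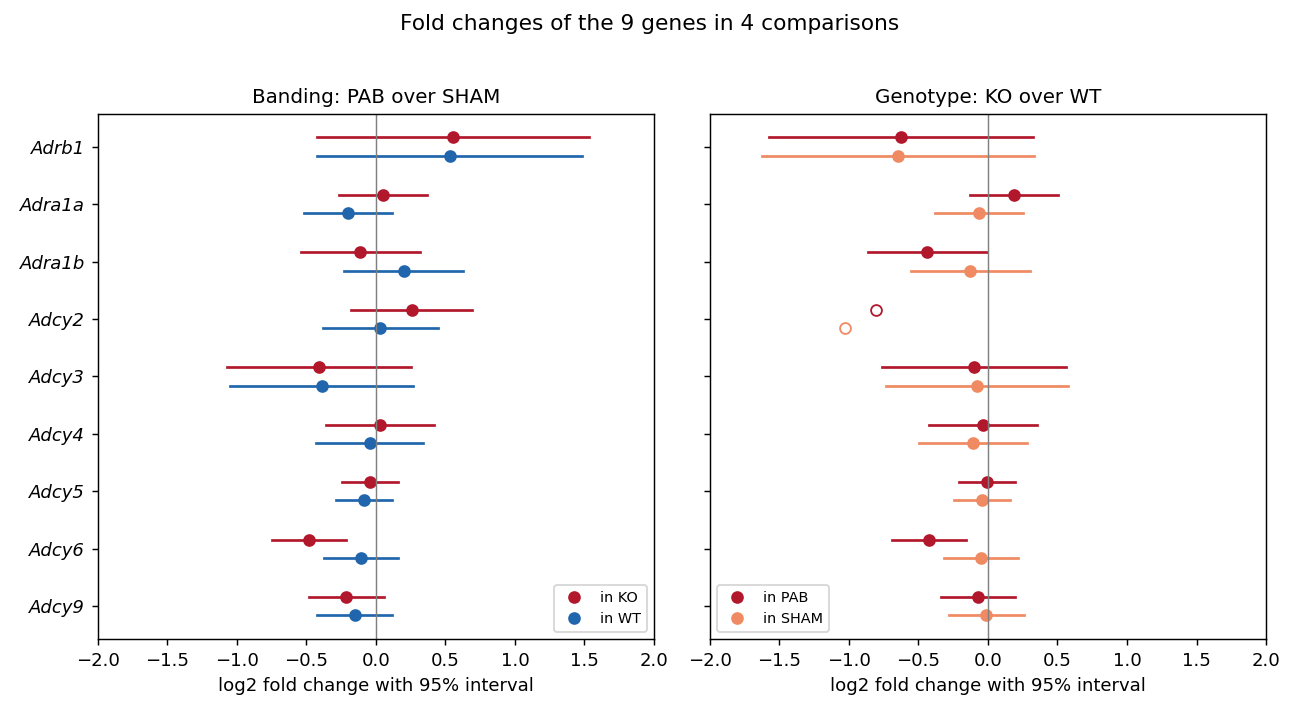
Log2 fold change (horizontal axes) of each gene for banding (left, PAB over SHAM in KO and in WT) and for genotype (right, KO over WT in PAB and in SHAM), with lines for the 95% interval from edgeR; open points for Adcy2 mark the comparison that chose it and carry no interval. Intervals are narrow for Adcy5 and wide for Adrb1. Those of Adcy6 lie below 0 in KO after banding and in PAB between genotypes, and that of Adra1b in PAB between genotypes.

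Adcy2 was chosen for its genotype difference, so its levels are given as a description. They were 0.791, 0.800, 1.10 and 1.21 CPM in KO PAB, 0.744, 0.921, 0.892 and 0.714 in KO SHAM, 1.65, 1.91, 1.53 and 1.74 in WT PAB, and 1.57, 1.84, 1.90 and 1.36 in WT SHAM. Its groups did not overlap in PAB, as for 1.63% of all genes in that direction, nor in SHAM, as for 0.75%. All 8 KO libraries lay below all 8 WT libraries, with 1.21 CPM the highest in KO and 1.36 CPM the lowest in WT; Adcy2 and Esr1 were the 2 tested genes, 0.0149%, with that pattern. The log2 fold change of KO against WT was -0.81 in PAB and -1.03 in SHAM, and -0.77 in SHAM without the 3 libraries that stood apart. The level rests on 21 to 63 counts per library. For banding, which did not choose it, Adcy2 had a log2 fold change of 0.26 in KO (-0.18 to 0.69, adjusted p = 0.601 by edgeR) and 0.032 in WT (-0.38 to 0.45, adjusted p = 0.982).

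**Figure D4:**
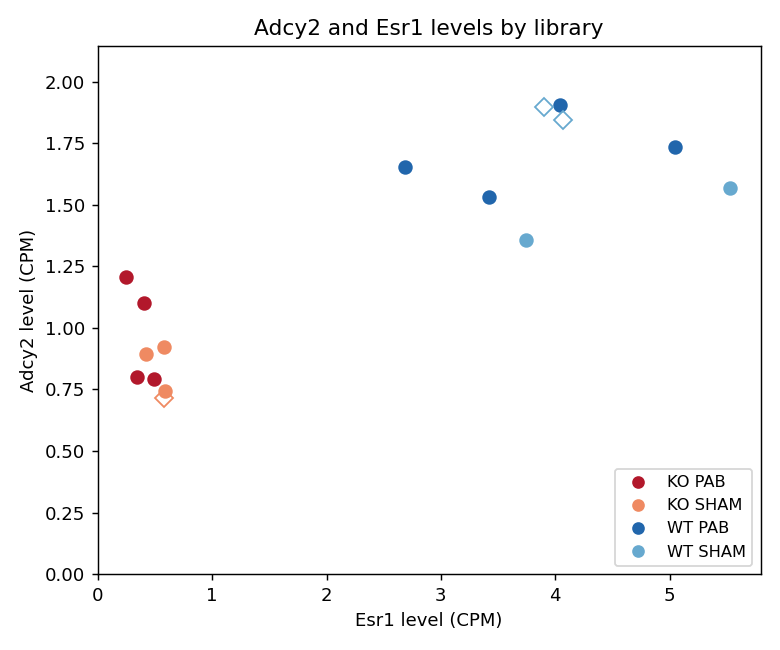
Adcy2 level against Esr1 level, both in CPM on linear axes, in the 16 libraries; colours give the group and open diamonds are KO SHAM 4, WT SHAM 2 and WT SHAM 3. Libraries fall into a KO cluster and a WT cluster on both axes. Adcy2 was at 0.714 to 1.21 CPM in KO and 1.36 to 1.91 CPM in WT, the difference that chose it.

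Adcy3 followed the 3 sham libraries that stood apart. Levels were 3.35, 4.00, 4.44 and 3.62 CPM in KO PAB, 3.10, 4.30, 4.93 and 8.07 in KO SHAM, 3.15, 5.01, 4.09 and 4.24 in WT PAB, and 2.90, 8.90, 5.27 and 4.44 in WT SHAM. The 3 highest values were in KO SHAM 4, WT SHAM 2 and WT SHAM 3, the libraries high in Adipoq and Msln. The averaged banding effect was -0.40 on the log2 scale (-0.86 to 0.069, adjusted p = 0.295 by edgeR) with all libraries and 0.043 without those 3. The part of fat and mesothelial RNA in this difference was not tested.

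Adcy4 and Adcy9, the remaining cyclases, showed no group apart. Adcy4 was at 4.93 to 9.89 CPM in KO PAB, 5.49 to 8.26 in KO SHAM, 6.53 to 7.52 in WT PAB and 6.12 to 8.37 in WT SHAM, and both its lowest and its highest library were in KO PAB. Its log2 fold change for banding was 0.028 in KO (-0.36 to 0.42) and -0.044 in WT (-0.43 to 0.34). Adcy9 was at 8.26 to 9.41 CPM in KO PAB, 8.25 to 12.7 in KO SHAM, 8.72 to 10.3 in WT PAB and 9.82 to 11.1 in WT SHAM. Its log2 fold change for banding was -0.21 in KO (-0.48 to 0.058) and -0.15 in WT (-0.42 to 0.12), and its averaged effect of -0.18 had an adjusted p of 0.241 by edgeR. Its log2 fold change between genotypes was -0.071 in PAB (-0.34 to 0.20) and -0.011 in SHAM (-0.28 to 0.26).

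Likeness between genes was described by Pearson's r of log2(CPM + 0.5) over the 16 libraries, which share their scaling, among 12207 genes with a symbol that is not a placeholder. Adcy2 was most like Esr1 (r = 0.87), but it was chosen for its genotype difference, so that r is no separate evidence. Within groups, after the group means were taken out, the r of Adcy2 and Esr1 was -0.11. Adcy6 was most like Grik4 (0.92), Gcnt1 (0.91) and Ppp1r3d (0.88). Adcy3 was most like Ano1 (0.96), Zhx3 (0.96) and Galnt15 (0.95). The nearest gene to Adrb1 was Gfod1 (0.91), to Adra1a Stam2 (0.80), to Adra1b Aars2 (0.89), to Adcy4 Krt2 (0.85), to Adcy5 Carm1 (0.84) and to Adcy9 Tmem53 (0.83). Each r to a nearest gene was the highest among the 12207 genes. How high it would be among unrelated genes was not tested. Between members the highest r was 0.67, for Adcy3 and Adcy9, and 0.61 within groups. Within groups the highest was 0.77, for Adra1b and Adcy5, against 0.62 over all libraries. For Adcy5 and Adcy6 it was 0.22 overall and 0.059 within groups, and for Adra1a and Adra1b 0.096 overall and 0.35 within groups.

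A list of 160 further symbols of the pathway was set beside the 9 members, and 132 of its entries passed the filter. For averaged banding 4 of the 132 rose, against 3.24% of all genes, and 3 fell, against 1.85%. At an unadjusted p below 0.05 there were 37 of 132, against 22.7% of all genes, and the median log2 fold change of the list was -0.065 against -0.024 for all genes. No role held more than 2 of the 7.

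The 4 that rose by edgeR's test with averaged banding were Plce1, Gna12, Hspb6 and Gnao1. Plce1, a phospholipase C that Epac and small GTPases turn on, was at 91.4 ± 13.2 CPM in KO PAB, 61.2 ± 5.92 in KO SHAM, 80.8 ± 12.6 in WT PAB and 56.8 ± 4.60 in WT SHAM, and its log2 fold change was 0.54 with an SE of 0.0860 (adjusted p = 0.00455). Gna12, a G protein alpha subunit, differed by 0.40 on the log2 scale (SE 0.0719, adjusted p = 0.00814). Hspb6, a small heat shock protein that protein kinase A phosphorylates, had 0.69 (SE 0.144, adjusted p = 0.0149). Gnao1, the Go alpha subunit, had 0.96 (SE 0.249, adjusted p = 0.0393), at 10.9 to 24.0 CPM in KO PAB, 6.70 to 9.43 in KO SHAM, 5.37 to 22.2 in WT PAB and 5.01 to 8.99 in WT SHAM.

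The 3 that fell were Slc22a3, Prkd1 and Adora1. Slc22a3, a transporter that clears catecholamines outside nerves, was at 9.90, 9.37, 10.4 and 6.56 CPM in KO PAB, 20.0, 20.7, 20.9 and 12.3 in KO SHAM, 9.61, 13.5, 14.0 and 13.9 in WT PAB, and 19.1, 15.5, 17.9 and 14.7 in WT SHAM. Banded and sham libraries did not overlap in KO or in WT, as for 4.32% and 2.33% of all genes in that direction. Its log2 fold change was -0.71 averaged (SE 0.130, adjusted p = 0.00833). Prkd1, protein kinase D1, had -0.39 (SE 0.102, adjusted p = 0.0384), and Adora1, the A1 adenosine receptor that couples to Gi, had -0.60 (SE 0.164, adjusted p = 0.0476).

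Plce1, Gna12, Hspb6 and Slc22a3 passed for averaged banding whichever single library was left out. Adora1 kept its call only without KO PAB 1, WT PAB 2 or WT SHAM 2, with adjusted p of 0.0224 to 0.0994 over the 16 fits. Gnao1 kept it only without KO PAB 1, WT PAB 2, WT PAB 3 or WT SHAM 1 (0.0142 to 0.0800), and Prkd1 only without KO SHAM 4, WT PAB 4, WT SHAM 2 or WT SHAM 4 (0.0118 to 0.0799). Adora1 and Gnao1 also lost the call with limma-voom (0.0534 and 0.0769) and with genes of any count kept (0.0570 each). Without the 3 sham libraries that stood apart, 13 of the list passed, 7 higher and 6 lower, against 7.00% of all genes; 6 of the 7 were among them and Gnao1 was not.

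Within KO, Plce1 rose by 0.58 on the log2 scale (adjusted p = 0.0455 by edgeR), against 0.513% of all genes called higher, and Slc22a3 fell by 1.03 (adjusted p = 0.0309), against 0.119% called lower. Plce1 kept that call only without KO PAB 1, WT PAB 1, WT PAB 3, WT PAB 4 or WT SHAM 2 (0.0148 to 0.154), and Slc22a3 lost it without KO PAB 2, KO PAB 4, KO SHAM 1, KO SHAM 2 or KO SHAM 3 (0.00878 to 0.120). Plce1 also lost it with genes of any count kept (0.0559). Within WT, 0 of 132 passed by edgeR and limma-voom and 3 by DESeq2, which called 108 of 13458 genes there, and 17 had an unadjusted p below 0.05, against 11.7% of all genes. Between genotypes, 0 of 132 passed by all 3 tools averaged over surgeries, in PAB and in SHAM, with 6, 8 and 0 at an unadjusted p below 0.05, against 4.93%, 4.52% and 2.03% of all genes. For the interaction 0 passed by all 3 tools and 4 had an unadjusted p below 0.05, against 1.76% of all genes.

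**Figure D5:**
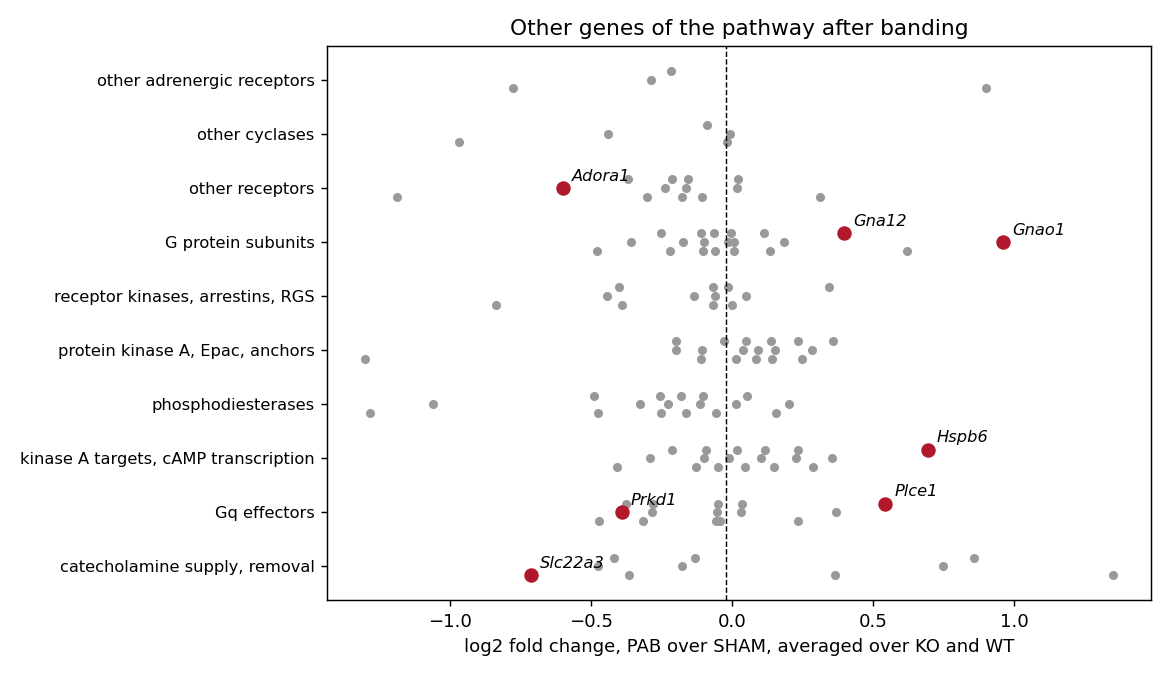
Log2 fold change for banding averaged over KO and WT (horizontal axis) of the 132 tested pathway entries by role (vertical axis, with small vertical offsets for visibility); large red points are the 7 past an adjusted p of 0.05 by edgeR, grey points the rest, and the dashed line is the median of all tested genes, -0.024. Called genes lie on both sides of the line and are spread over 5 roles.

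The example genes of single steps given here did not pass for averaged banding. Gnas, the Gs alpha subunit, had a log2 fold change of 0.13 for the entry of that symbol with 1044 to 1703 counts; a second entry held 0 to 5 counts and was not tested. The receptor kinases Grk5 and Adrbk1 had 0.34 and -0.068, and the catalytic subunits of protein kinase A, Prkaca and Prkacb, had -0.11 and -0.028. The phosphodiesterases Pde3a, Pde4b and Pde4d, which break down cyclic AMP, had -0.11, -0.26 and -0.23. Grk5 passed without the 3 sham libraries that stood apart (0.67, adjusted p = 0.0279), and Pde4b passed without WT SHAM 2 (-0.30, adjusted p = 0.0467). Pln, the target of protein kinase A that restrains the calcium pump, had 0.018, and -0.18 without the 3 sham libraries that stood apart.

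Some genes of the pathway were seen mainly in the 3 sham libraries that stood apart. The beta3 receptor gene Adrb3, which is also on the adipocyte marker list, had 2 counts in KO SHAM 4, 8 in WT SHAM 2 and 24 in WT SHAM 3, and 0 in each of the other 13 libraries. Slc6a2, the noradrenaline transporter of sympathetic nerves, had 30, 62 and 15 counts in those libraries and 0 to 6 in the other 13. Both were below the filter and were not tested.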

How the data were processed

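Right ventricle RNA of 16 libraries (4 groups of 4) was analysed. The deposited values are expected counts, 1 whole number per gene entry and library; per the submitters' processing notes the authors used STAR 2.5.3a, RSEM 1.3.0 and the build Rnor_6.0. Annotation, strandedness of counting and rounding are not given in the sources used here, so reads of antisense or near-identical genes could be split or joined in ways that cannot be seen. Of 32754 entries, 274 symbols occurred more than once, and such entries were kept apart. Totals of 22168110 to 34718633 counts set the counting error, and intervals cover the spread between libraries.

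Counts were scaled by TMM, filtered by filterByExpr (min.count 10, 13458 genes kept) and tested with edgeR 4.0.16 in R 4.3.3 by a robust quasi-likelihood fit of the 4 group means, with Benjamini-Hochberg adjustment within each of the comparisons and a threshold of 0.05. The SE is the log2 fold change over the square root of F. Members were also tested singly by two-sided exact permutation of log2 CPM. The procedure was tested on simulated data. Alternatives were DESeq2 1.42.0, RLE factors, limma-voom (limma 3.58.1), keeping genes of any count or with 1 CPM in 4 libraries, a replicate block, a fit of the compared groups alone, a minimum fold of 1.5 and each library left out; a fit without 3 sham libraries with adipocyte and mesothelial scores above 0.4, an exact permutation within strata and within-library ratios were added after the data were seen.

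The members and lists were chosen with earlier results of these data known. The text names all members, up to 6 pathway genes past the test per comparison and direction, a set of example genes, Esr1, the 3 tested genes most like each member, of which only the first is given for 6 members, and the markers Adipoq, Msln and Myh11. Plin1, Nppa, Adrb3 and Slc6a2 were named after their values were seen. A result of the example set is not reported here. Adcy2 was not tested between genotypes because its level there chose it. Promoter windows are from RefSeq (GRCr8), another build than that of the counts, and were searched for 5 motifs on both strands; the 3 members without a window there are Adra1a, Adcy3 and Adcy6.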

Additional observations from a re-analysis of the deposited data

How the results depend on the processing

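Of 1548 member log2 fold changes recomputed under the alternatives, 1462 counted as unchanged. Tested values counted so if they kept their direction and their side of the threshold. The genotype and interaction values of Adcy2, which were not tested, counted so if they kept direction and moved less than the within-group SD. Another 9 of the 1548, all of Adcy6 and given in the report, passed the threshold under an alternative. For Adcy2 in SHAM, KO against WT was -0.77 without the 3 sham libraries. No tested member value was past the threshold in the reported fit, so none could lose a call. The remaining 76 changed sign. The cause of these changes was not tested.

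The number of members past the test for averaged banding was 0 as reported, 1 with DESeq2, 1 without the 3 sham libraries, and 0 to 1 when single libraries were left out. In KO it was 1 with DESeq2, 1 with a fit of the compared groups alone, 1 without the 3 sham libraries and 0 to 1 leaving out single libraries. The number of pathway genes past the test for averaged banding was 7 as reported, 17 with DESeq2, 4 with the replicate block, 0 with a minimum fold of 1.5, 13 without the 3 sham libraries and 4 to 10 leaving out single libraries. In KO it was 2 as reported, 5 with DESeq2, 1 with no filter, 0 with the replicate block, 0 with a minimum fold of 1.5, 6 without the 3 sham libraries and 0 to 4 leaving out single libraries. In WT it was 3 with DESeq2. Over all genes the calls moved too: for averaged banding 685 as reported, 1337 with DESeq2, 496 with the replicate block, 23 with the minimum fold, 951 without the 3 sham libraries and 356 to 964 leaving out single libraries. In KO they were 85 as reported, 509 with DESeq2, 57 of 19006 with no filter, 0 with the block, 2 with the minimum fold, 155 with a fit of the compared groups alone, 344 without the 3 sham libraries and 0 to 275 leaving out single libraries. The minimum fold asks for a change beyond 1.5-fold, which fewer genes meet.

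Sign changes outside single libraries were these. Without the 3 sham libraries, Adcy2 had -0.028 for the interaction, Adcy3 had 0.043 for averaged banding, 0.17 for banding in WT, 0.032 for KO against WT averaged and 0.16 in SHAM, Adcy4 had 0.047 and Adra1b -0.017 for averaged banding, and Adcy9 had 0.018 for the interaction. Among pathway genes, Pln had -0.18 and Prkacb 0.050 for averaged banding without them. With limma-voom, Adcy3 had 0.0021 for the interaction and Adcy4 -0.00087 for banding in KO. With the fit of the compared groups alone, Adcy5 had 0.0040 for KO against WT in PAB, and with the replicate block Adrb1 had -0.0031 for the interaction.

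When single libraries were left out, the ranges that crossed 0 were as follows. For averaged banding they were -0.12 to 0.058 for Adcy4, -0.066 to 0.11 for Adra1b and -0.062 to 0.073 for Pln. For banding in KO they were -0.19 to 0.16 for Adcy4, -0.11 to 0.013 for Adcy5, -0.054 to 0.17 for Adra1a and -0.33 to 0.022 for Adra1b. For banding in WT they were -0.053 to 0.10 for Adcy2, -0.12 to 0.032 for Adcy4 and -0.20 to 0.0069 for Adcy6. For KO against WT averaged they were -0.25 to 0.095 for Adcy3, -0.060 to 0.0030 for Adcy5 and -0.092 to 0.0082 for Adcy9. In PAB they were -0.21 to 0.0079 for Adcy3, -0.26 to 0.097 for Adcy4 and -0.075 to 0.051 for Adcy5. In SHAM they were -0.40 to 0.28 for Adcy3, -0.15 to 0.064 for Adcy6, -0.12 to 0.088 for Adcy9 and -0.17 to 0.044 for Adra1a. For the interaction they were -0.37 to 0.31 for Adcy3, -0.15 to 0.20 for Adcy4, -0.030 to 0.095 for Adcy5, -0.16 to 0.056 for Adcy9 and -0.35 to 0.49 for Adrb1.

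The labels do not say whether libraries with the same replicate number were handled together. After the group means were taken out, same-numbered libraries of different groups had correlations of -0.61 to 0.54. Among libraries of other groups, 3 of 16 libraries correlated best with their own number. With so few libraries per number, this cannot tell whether they share a batch. The replicate block moved the counts as given above and left the counts of members at 0. With it, adjusted p for averaged banding was 0.0883 for Adora1, 0.0804 for Gnao1 and 0.0762 for Prkd1, and in KO 0.0904 for Plce1 and 0.0791 for Slc22a3. Exact permutation within strata, over 4900 arrangements, gave p = 0.0184 for Adcy6 with averaged banding and 0.304 after adjustment over 17 tests. The members with the fewest counts were Adrb1, at 10 to 68 per library, and Adcy2, at 21 to 63.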
